A study of Homo sapiens with 6 samples.

Results

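Integrins and laminins are the receptors and ligands by which cells attach to basement membrane, and their transcripts were examined in TC-71 cells with and without knockout of XG. The members were all protein-coding rows of the count table named as an integrin alpha chain (18 genes), an integrin beta chain (8), or a laminin alpha (5), beta (4) or gamma chain (3), which gave 38 of 60662 genes. TC-71 is an established line of Ewing sarcoma, a tumour of bone and soft tissue. The 2 groups were wildtype cells and cells with XG knockout, 3 libraries each, all untreated and grown in the same serum-containing medium. XG encodes a cell-surface glycoprotein of the Xg blood group, related to CD99. How the knockout was made, and whether it is 1 clone, is not stated in the labels. Nor do they call the replicates separate cultures, so the spread behind each p-value may be technical.

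An integrin is a pair of 1 alpha and 1 beta chain, and as a rule the chains leave the endoplasmic reticulum only once paired. Beta 1 pairs with many alpha chains to bind fibronectin, collagens and laminins, alpha V pairs with several beta chains to bind vitronectin and fibronectin, and beta 2 pairs with the alpha chains of leukocytes. A laminin is a trimer of 1 alpha, 1 beta and 1 gamma chain that is secreted and polymerizes into the basement membrane, where integrins and dystroglycan bind mainly the end of its alpha chain.

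Library totals ranged from 22557187 to 31214099 fragments, and 14425 genes passed the filter on low counts and were tested. XG itself stood at 45.4, 47.1 and 44.4 CPM (normalised counts scaled to a common library size) in wildtype replicates 1, 2 and 3 and at 30.0, 30.0 and 28.9 CPM in the knockout replicates, which is 64.8% of wildtype (log2 ratio of knockout over wildtype -0.63, standard error 0.0478, edgeR adjusted p = 1.65e-06). XG transcripts were reduced and not absent in the libraries labelled as knockout. Knockout replicate 3 stood apart from the other 2 knockout libraries: chi-square per gene was 4.70 and 4.33 against them and 2.15 to 2.38 against the wildtype libraries. Knockout replicates 1 and 2 were also lower for GC-rich transcripts. At a GC content of 61.4%, their fitted trend was -0.11 and -0.077 on the log2 scale, against 0.041 to 0.060 in the other 4 libraries. All 10 markers of Ewing sarcoma cells fixed for the check were expressed, and their summed level was 2753 to 2806 CPM in wildtype and 2675 to 2692 CPM in knockout libraries. In 3 of the 10 markers (CD99, CCND1 and LIPI) every knockout library lay below every wildtype library, and 1 of them, CD99, passed the test (edgeR adjusted p = 0.0302). Over all tested genes 9.8% were lower without overlap and 0.915% passed as lower. For LIPI the gap was small, with at most 26.1 CPM in knockout and at least 26.3 CPM in wildtype libraries.

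Most of the family's transcripts came from a small set of chains. Of the 38 members, 24 passed the filter (15 of 26 integrins and 9 of 12 laminins) and 15 lay above 1 FPKM, which is CPM divided by gene length in kilobases and serves here to compare genes. The other 14 members had at most 50 counts summed over the 6 libraries. ITGA8, ITGAL and ITGB6 had 0 of 161687007 counts, which allows at most 0.00253, 0.00289 and 0.00321 FPKM (a limit of 3 counts over all libraries, for counting error only).

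**Figure D1:**
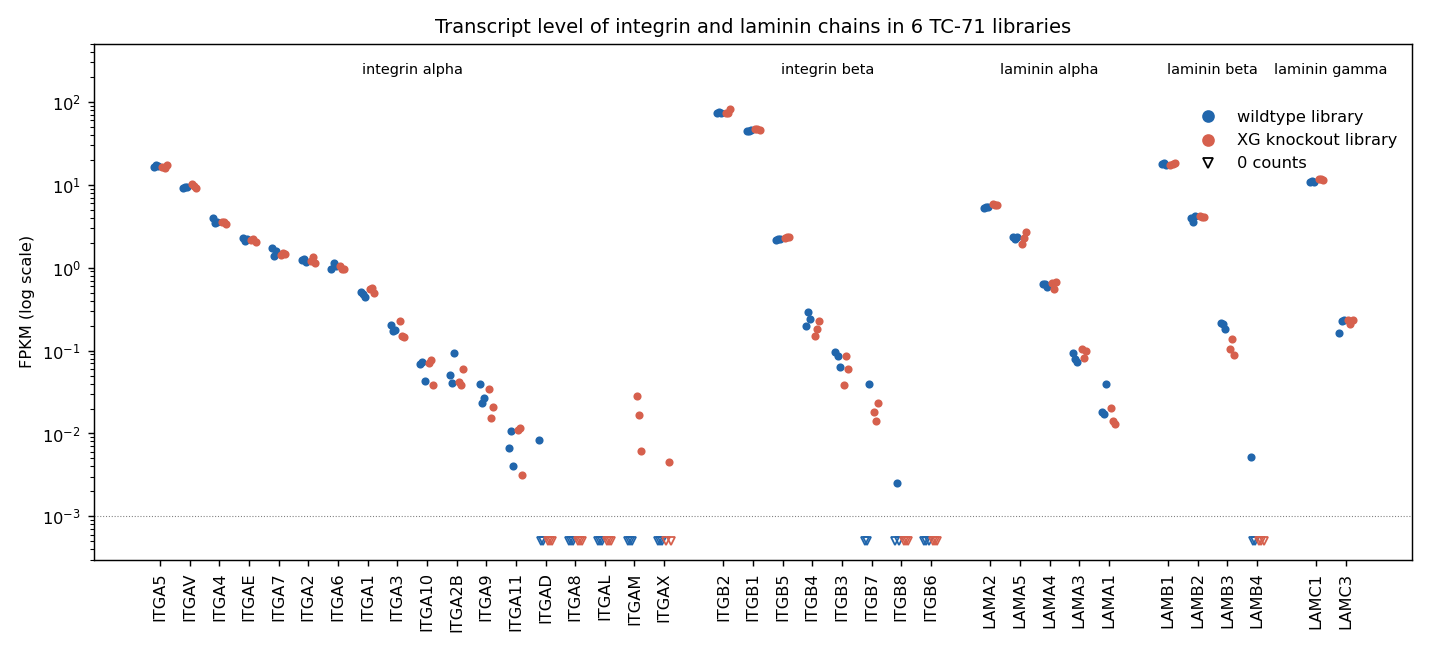
FPKM of 37 of the 38 integrin and laminin genes on a log axis, ordered within each chain type by the wildtype mean. Each point is 1 library and open triangles mark libraries with 0 counts; ITGB2 and ITGB1 stand highest at 73.6 and 44.8 FPKM in wildtype, and the wildtype and knockout points of the abundant chains lie at nearly the same height.

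ITGB2, the beta chain of leukocyte integrins, was the most abundant integrin transcript in this sarcoma line. ITGB2 (ENSG00000160255.18, chromosome 21, 44885953 to 44931989, minus strand, GRCh38) stood at 72.5, 75.6 and 72.8 FPKM in the wildtype libraries and at 74.1, 73.8 and 82.8 FPKM in the knockout libraries, above ITGB1 in every library. It made up 60.9% ± 0.569 of all integrin beta chain FPKM in wildtype and 60.9% ± 2.04 in knockout cells (SD, n = 3). Its mean level was at or above that of 96.3% of all tested genes.

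None of the alpha chains that pair with beta 2 passed the filter. ITGAL (of LFA-1) and ITGAX (of complement receptor 4) had 0 and 1 counts over all 6 libraries, ITGAM (of Mac-1) had 8, and ITGAD had 1, against 83703 counts for ITGB2. The 8 ITGAM counts were 4, 3 and 1 in the knockout libraries, with 0 in wildtype, too few for a test. Markers of leukocytes were also near 0: 9 of 10 stayed under 1 CPM in every library, and PTPRC (CD45) had 0 to 3 counts. The exception was CORO1A, an actin-binding protein, at 4.65 to 5.79 CPM. The summed level of the 10 leukocyte markers was 5.03 to 5.76 CPM in wildtype and 4.87 to 5.99 CPM in knockout libraries. The antisense gene ITGB2-AS1 overlaps ITGB2 on the other strand and was counted apart from it, at 12.1 to 14.8 CPM in wildtype and 14.1 to 15.3 CPM in knockout libraries.

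ITGB1 was the second beta chain and was matched by partners. ITGB1 (ENSG00000150093.19, chromosome 10, 32900318 to 33005792, minus strand) had 44.8 ± 0.600 FPKM in wildtype cells (SD, n = 3). The 12 alpha chains that can pair with it summed to 34.3 ± 0.253 FPKM. ITGB1 thus exceeded its partners 1.31 ± 0.0235-fold in wildtype and 1.37 ± 0.0301-fold in knockout libraries (SD, n = 3). These ratios are as counted, with the GC trend left in. Removing that trend took the log2 ratio of knockout over wildtype from 0.058 to 0.021 for ITGB1. For ITGA5 it went from -0.034 to -0.0017, and for ITGAV from 0.061 to 0.019. The beta chains other than ITGB2 and ITGB1 were far lower. ITGB5, of the vitronectin receptor, had 2.20 ± 0.0180 FPKM in wildtype. ITGB3 and ITGB4, the latter a hemidesmosome chain that pairs with alpha 6, had 0.0820 ± 0.0172 and 0.244 ± 0.0458 FPKM. ITGB7 and ITGB8 had 11 and 1 counts over all libraries.

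**Figure D2:**
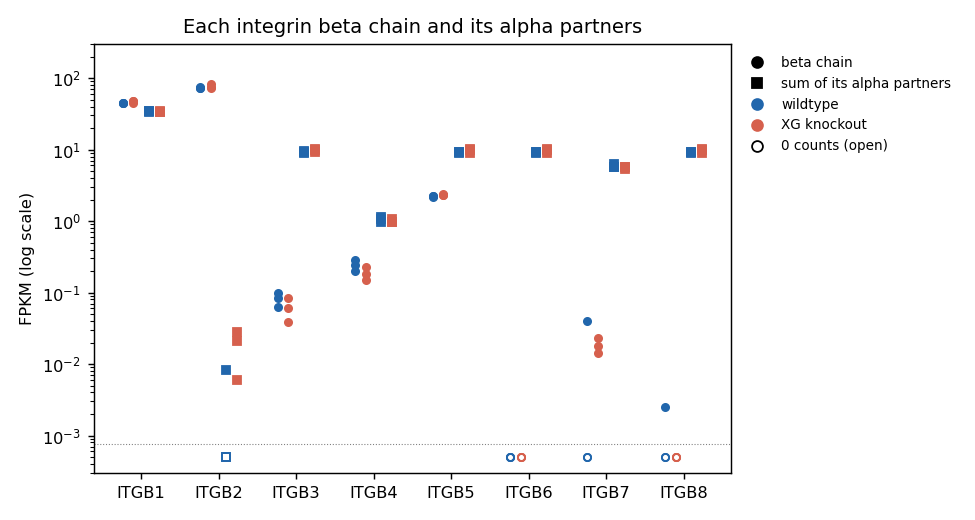
FPKM of each integrin beta chain (circles) and the summed FPKM of the alpha chains known to pair with it (squares), on a log axis, 1 point per library; open symbols mark 0 counts. For ITGB1 both stand near each other, for ITGB2 the partners lie at 0 to 0.0283 FPKM, and for the other beta chains the partners exceed the beta chain.

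Among alpha chains the fibronectin receptor chain ITGA5 led with 16.8 ± 0.353 FPKM in wildtype, followed by ITGAV with 9.23 ± 0.168 and ITGA4, which binds fibronectin and VCAM1, with 3.70 ± 0.285 FPKM (SD, n = 3). ITGAE, which pairs with beta 7 in intraepithelial lymphocytes, had 2.21 ± 0.0745 FPKM although ITGB7 was near 0. The laminin-binding chains ITGA7, ITGA6 and ITGA3 had 1.56 ± 0.153, 1.05 ± 0.0865 and 0.184 ± 0.0166 FPKM. The collagen-binding chains ITGA2, ITGA1, ITGA10 and ITGA11 had 1.23, 0.478, 0.0620 and 0.00712 FPKM. The wildtype ranges of neighbours in this order did not overlap from ITGA5 down to ITGA10, whereas ITGA10 overlapped ITGA2B. ITGA1 shares its strand with PELO, which lies within it and had 7098 counts, and fragments falling on exons of both genes were not counted, which leaves the ITGA1 level uncertain. Both chains passed the filter for 12 of 24 known integrin pairs, and both lay above 1 FPKM in wildtype for 7 of them: beta 1 with ITGA2, ITGA4, ITGA5, ITGA6, ITGA7 or ITGAV, and ITGAV with ITGB5.

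Among laminins the chains of laminins with alpha 2 and alpha 5 prevailed. LAMA2, the alpha chain of muscle and nerve basement membranes, had 5.37 ± 0.0865 FPKM in wildtype, which was 63.9% ± 0.993 of all laminin alpha chain FPKM (SD, n = 3). LAMA5, the widespread alpha chain of adult epithelia and vessels, had 2.31 ± 0.0691 and LAMA4, of vessels and muscle, 0.616 ± 0.0290 FPKM. LAMA3, an epithelial chain, was at 0.0816 FPKM, and LAMA1, of early embryonic laminin, at 0.0248 FPKM and below the filter. LAMB1 exceeded LAMB2 with 17.7 ± 0.395 against 3.90 ± 0.298 FPKM. LAMC1 had 11.02 ± 0.171 FPKM and 97.9% ± 0.176 of gamma chain FPKM. All 3 chains passed the filter for 11 of 14 laminin trimers listed. In 4 of them the lowest chain lay above 1 FPKM, namely the trimers of LAMA2 or LAMA5 with LAMB1 or LAMB2 and LAMC1.

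No integrin or laminin gene passed the test between knockout and wildtype cells with all 6 libraries as counted. By edgeR's quasi-likelihood test with Benjamini-Hochberg adjustment, 0 of 24 tested members had an adjusted p under 0.05, against 1.36% of all tested genes, and the lowest adjusted p was 0.124. At an unadjusted p under 0.05 there were 3 members (LAMA2, LAMC1 and LAMB3), against 16.8% of all genes. By limma voom 0 of 24 were called (lowest adjusted p 0.119), and by DESeq2 0 of the 17 to which it gave an adjusted p (lowest 0.372), LAMB3 not among them. They called 1.5% and 1.96% of all genes. In the authors' deposited table, 0 of the 10 members given an adjusted p-value had one under 0.05, and the lowest was 0.338. The 3 libraries of each group did not overlap in 4 members that were higher (ITGB1, ITGB5, LAMA2 and LAMC1) and 1 that was lower (LAMB3). Over all genes that share was 20.5% (10.7% higher and 9.8% lower). For ITGB1 the gap was small as counted, 272.8 CPM in wildtype replicate 3 and 273.1 CPM in knockout replicate 3. After removal of the GC trend the ITGB1 groups overlapped (275.4 CPM in wildtype replicate 3, 275.3 CPM in knockout replicate 1). Its corrected log2 ratio was 0.021 (edgeR adjusted p = 0.746). The GC-corrected fit called 1 member, ITGB2 (log2 ratio 0.14, edgeR adjusted p = 0.000203), and 2.35% of all genes. As counted, the median log2 ratio was 0.088 for laminins (8 of 9 positive) and -0.034 for integrins (6 of 15 positive). Over all tested genes it was 0.0019, with 50.9% positive. The integrin median was 0.0056 without knockout replicate 3, and the laminin median was 0.044 and 0.031 without wildtype replicate 1 or 2. In bulk RNA a change in the number of cells that express a gene and a change in its level per cell cannot be told apart.

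**Figure D3:**
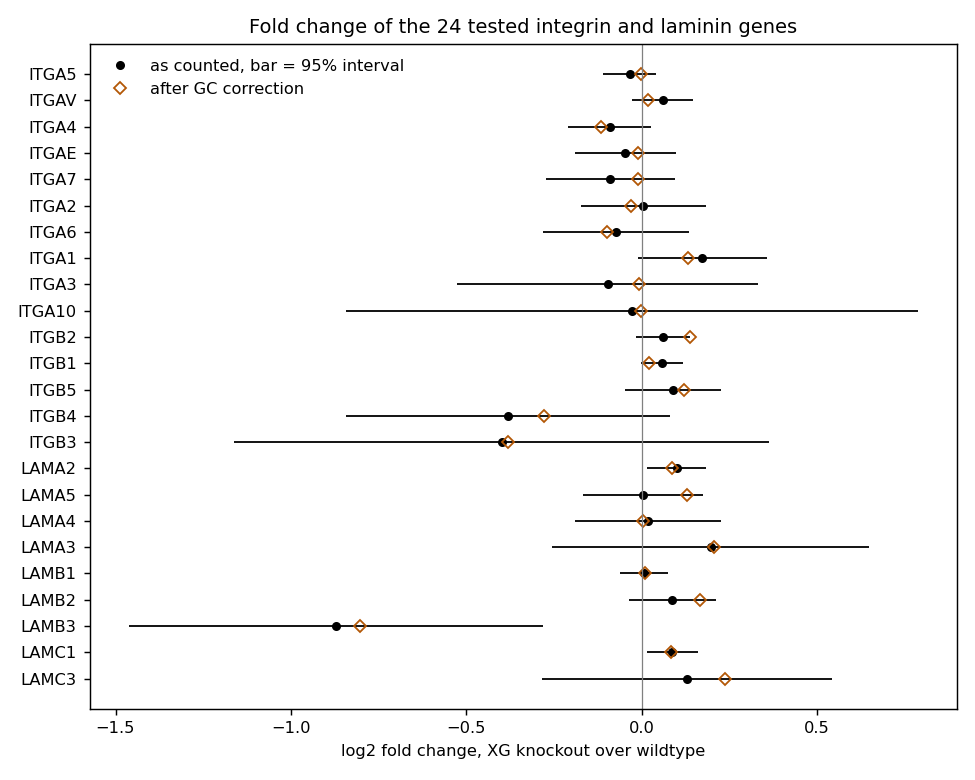
Log2 ratio of XG knockout over wildtype for the 24 tested members, ordered by chain type and wildtype level; filled circles with bars give the value as counted with its 95% interval, and open diamonds the value after GC correction. The abundant chains have narrow intervals close to 0, and LAMB3, LAMA2 and LAMC1 have intervals that leave out 0 before adjustment over all genes.

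The 15 members above 1 FPKM had narrow intervals. Their fold changes lay between 93.9% and 107% of wildtype, and their 95% intervals, which are not adjusted for the number of genes, reached from 82.4% at the lowest to 117.0% at the highest, as counted. After GC correction their log2 ratios ran from -0.12 (ITGA4) to 0.17 (LAMB2), and those of LAMB2, ITGB2 and LAMA5 (0.17, 0.14 and 0.13) lay above the highest ratio as counted, 0.10. ITGB1 was at 104% (interval 99.9% to 108%), ITGA5 at 97.7% (92.7% to 103%), ITGAV at 104% (98.2% to 111%) and LAMB1 at 100.5% (95.9% to 105%). Among the 9 tested members at or below 1 FPKM, ITGA1 (99.2% to 128%) and LAMA4 (87.6% to 117.0%) had intervals about as narrow as those of ITGA6 and ITGA7. The other 7 had half-widths of 0.413 to 0.815 on the log2 scale, the widest for ITGA10 (55.8% to 173%). ITGB4 and ITGB3 had log2 ratios of -0.38 and -0.40 (edgeR adjusted p = 0.410 and 0.637), ITGA1 one of 0.17 (0.331) and LAMA3 one of 0.20 (0.702).

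LAMB3, the beta chain of epithelial laminin, had the largest difference of the family, at a low level. LAMB3 (ENSG00000196878.15, chromosome 1, 209614870 to 209652425, minus strand) had 28, 25 and 19 counts in wildtype and 12, 20 and 12 in knockout libraries, which is 1.01, 0.960 and 0.845 CPM against 0.482, 0.632 and 0.414 CPM. The groups did not overlap. The log2 ratio was -0.87 (standard error 0.281, edgeR adjusted p = 0.124), and over the alternatives run it ranged from -1.18 to -0.63, with an adjusted p, where one was given, of 0.111 to 0.395. The summed level of 8 epithelial markers was also lower, 4.63 to 5.65 CPM in wildtype and 3.49 to 4.43 CPM in knockout libraries, and its part in the LAMB3 difference was not tested. Most of that sum was TP63, a transcription factor, at 3.73, 3.76 and 4.45 CPM in wildtype and at 2.97, 3.19 and 2.87 CPM in knockout libraries (no overlap). Lower without overlap were 9.8% of all tested genes, and TP63 did not pass the test (edgeR adjusted p = 0.146). Of the other markers, ESRP1 overlapped between groups. The remaining 6, CDH1, EPCAM and the keratins KRT5, KRT14 and KRT19 among them, stayed under 1 CPM in every library.

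LAMA2 and LAMC1, which belong to the same trimers, differed by small and similar amounts. LAMA2 (ENSG00000196569.12, chromosome 6, 128883141 to 129516569, plus strand) stood at 54.6, 56.0 and 56.2 CPM in wildtype and at 60.9, 59.0 and 58.9 CPM in knockout libraries. Its log2 ratio was 0.10 (standard error 0.0402, edgeR adjusted p = 0.211). LAMC1 (ENSG00000135862.6, chromosome 1, 183023420 to 183145592, plus strand) stood at 92.4, 94.7 and 92.1 CPM in wildtype and at 100.2, 100.4 and 96.1 CPM in knockout libraries, with a log2 ratio of 0.088 (standard error 0.0348, edgeR adjusted p = 0.205). Neither gene's groups overlapped. Without knockout replicate 3 LAMC1 passed the test (log2 ratio 0.11, edgeR adjusted p = 0.0261), in a fit that called 12.7% of all genes. LAMB1, the most abundant beta chain of these trimers, had 144, 146 and 140 CPM in wildtype and 140, 145 and 146 CPM in knockout libraries, and its groups overlapped.

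ITGB2 gave different answers before and after the GC correction. As counted, it had 498, 519 and 500 CPM in wildtype and 509, 507 and 569 CPM in knockout libraries, so that knockout replicate 3 alone lay above wildtype (log2 ratio 0.062, standard error 0.0366, edgeR adjusted p = 0.421). Without that library the log2 ratio was 0.0056. The ITGB2 transcript has a GC content of 59.99%, in the range where knockout replicates 1 and 2 were low. After removal of the GC trend it stood at 484, 502 and 488 CPM in wildtype and at 542, 532 and 549 CPM in knockout libraries, with no overlap. The corrected log2 ratio was 0.14 (standard error 0.0224, edgeR adjusted p = 0.000203), in a fit that called 2.35% of all genes, and ITGB2 was the only member it called. With the GC correction ITGB2 remained past the threshold when any 1 library was left out (edgeR adjusted p = 4.12e-05 to 0.0141). Those fits called 0.896%, 0.981% and 1.16% of all genes without wildtype replicates 1, 2 and 3, and 2.68%, 1.77% and 2.64% without the knockout replicates.

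**Figure D4:**
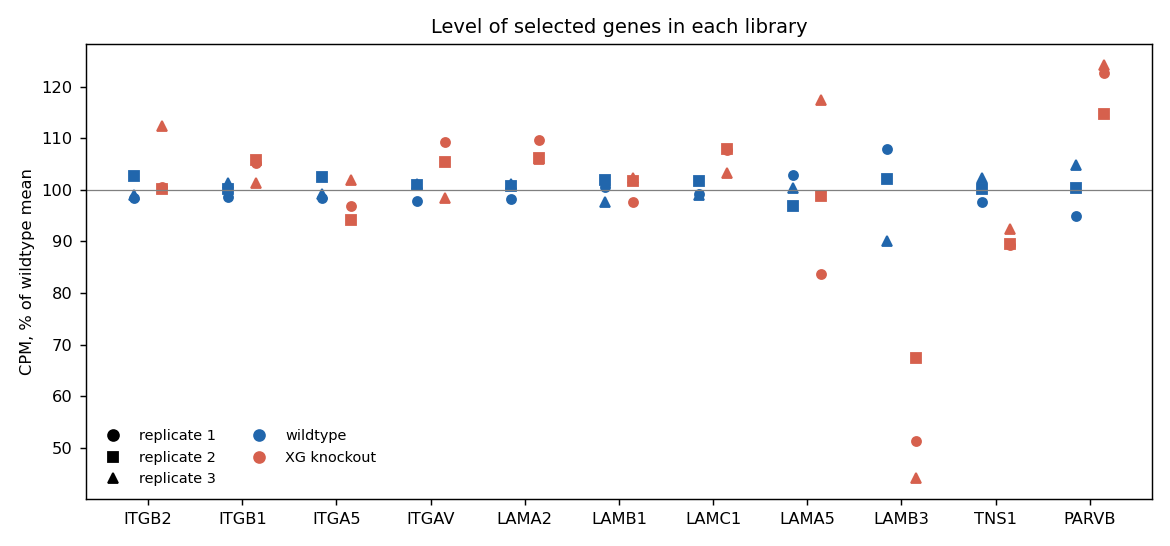
CPM of 9 members and 2 integrin adaptor genes in each library, as a percentage of the wildtype mean. Symbols mark replicate numbers, which the labels do not call pairs, and the genes were chosen after their values were seen. Knockout replicate 3 stands highest for ITGB2 and LAMA5, LAMB3 and TNS1 are lower and PARVB, LAMA2, LAMC1 and ITGB1 higher in every knockout library. Values are as counted, and after removal of the GC trend the ITGB1 groups overlap.

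LAMA5 differed among all 3 knockout libraries. It stood at 33.9, 32.0 and 33.1 CPM in wildtype and at 27.6, 32.6 and 38.7 CPM in knockout replicates 1, 2 and 3. Knockout replicate 1 lay below the wildtype libraries, replicate 2 within their range and replicate 3 above them. The LAMA5 transcript has a GC content of 66.4%. The log2 ratio was 0.0045 as counted, 0.13 after GC correction (edgeR adjusted p = 0.188) and -0.12 without knockout replicate 3. With GC correction it passed only without knockout replicate 1 among the fits that left out a library (0.18, edgeR adjusted p = 0.0301). LAMB2, the beta chain of muscle synapses and kidney filters, stood at 27.1, 24.6 and 28.6 CPM in wildtype and at 29.2, 27.9 and 28.2 CPM in knockout libraries, with overlap (log2 ratio 0.088, edgeR adjusted p = 0.489). After GC correction its log2 ratio was 0.17 (standard error 0.0572, edgeR adjusted p = 0.126), and it passed only without knockout replicate 3 (0.22, edgeR adjusted p = 0.0308).

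Genes that act with integrins and laminins were taken from 5 fixed lists of 128 genes. Of these, 98 were tested and 2 passed, against 1.36% of all tested genes. Both were among adaptors that link integrins to actin. Of 33 tested adaptors (38 listed), 1 rose and 1 fell, against 0.444% and 0.915% of all genes; 10 of 33 had an unadjusted p under 0.05 (2 higher and 8 lower), against 16.8% of all genes. Their median log2 ratio was -0.044, and 12 of 33 were positive, against 50.9% of all genes. PARVB, which encodes beta-parvin of the complex with integrin-linked kinase (ENSG00000188677.14, chromosome 22, 43999211 to 44172949, plus strand), rose from 18.5, 19.6 and 20.5 CPM in wildtype to 23.9, 22.4 and 24.3 CPM in knockout libraries (log2 ratio 0.27, standard error 0.0615, edgeR adjusted p = 0.0360). TNS1, tensin 1, which binds the tails of beta integrins (ENSG00000079308.19, chromosome 2, 217799588 to 218033982, minus strand), fell from 206, 211 and 216 CPM in wildtype to 189, 189 and 195 CPM in knockout libraries (log2 ratio -0.15, standard error 0.0300, edgeR adjusted p = 0.0226). The groups did not overlap for either gene, and both were called again after GC correction (0.29 and -0.091; edgeR adjusted p = 0.00218 and 0.0412). With GC correction and 1 library left out, PARVB passed in all 6 fits, and TNS1 only without knockout replicate 1 (adjusted p = 0.0501 to 0.248 in the other 5). The call of PARVB was lost when any library other than knockout replicate 3 was left out (log2 ratio 0.23 to 0.30, adjusted p = 0.0724 to 0.212). That of TNS1 was lost in the same 5 fits (log2 ratio -0.16 to -0.13, adjusted p = 0.0600 to 0.170). Those fits called 0.164%, 0.177% and 0.122% without wildtype replicates 1, 2 and 3, and 0.457% and 0.281% without knockout replicates 1 and 2, of all genes.

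In the other 4 lists no gene passed by edgeR, and DESeq2 called only BSG (adjusted p = 0.0487). Other integrin ligands (16 of 29 tested) had a median of -0.11, with 3 of 16 positive (50.9% of all genes), and 4 of 16, all lower, had an unadjusted p under 0.05 (16.8% of all genes). The matrix protein THBS2 went from 19.5 ± 0.252 to 16.7 ± 0.554 CPM (SD, n = 3; edgeR adjusted p = 0.0818), and TGFB1, whose latent form binds alpha V integrins, from 166 ± 4.77 to 153 ± 12.6 CPM (log2 ratio -0.12, adjusted p = 0.188). Without knockout replicate 3, TGFB1 passed (log2 ratio -0.19, edgeR adjusted p = 1.61e-05), as did THBS2 (-0.22, 0.0304). That fit called 12.7% of all genes. After GC correction the log2 ratio of TGFB1 was -0.014 (0.870). Basement membrane partners (14 of 21 tested) had a median of 0.11, with 9 of 14 positive (50.9% of all genes), and 8 of 14, 6 higher and 2 lower, had an unadjusted p under 0.05 (16.8% of all genes). HSPG2, which encodes perlecan, stood at 17.9, 19.6 and 18.3 CPM in wildtype and at 19.2, 22.1 and 26.0 CPM in knockout libraries (log2 ratio 0.28, edgeR adjusted p = 0.112). It rested in part on knockout replicate 3, without which the log2 ratio was 0.16 (0.141). After GC correction it was 0.39 (edgeR adjusted p = 0.000141). COL4A2, a chain of collagen IV, went from 15.9 ± 1.08 to 13.2 ± 1.12 CPM (log2 ratio -0.28, edgeR adjusted p = 0.0818). It passed without knockout replicate 3 (-0.35, 0.00181), in the fit that called 12.7% of all genes. The COL4A2 transcript has a GC content of 62.0%, and after GC correction its log2 ratio was -0.19 (edgeR adjusted p = 0.156).

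Dystroglycan and related laminin receptors, with the enzymes that glycosylate dystroglycan (21 of 26 tested), had a median of -0.011 with 9 of 21 positive, and 4 of 21, 2 higher and 2 lower, were at an unadjusted p under 0.05 (50.9% and 16.8% of all genes). SSPN, sarcospan of the dystrophin complex, went from 5.49 ± 0.454 to 7.17 ± 0.189 CPM (SD, n = 3; edgeR adjusted p = 0.0671), and SNTB1, a syntrophin of that complex, from 26.1 ± 1.35 to 22.9 ± 0.628 CPM (0.109). Membrane partners of integrins (14 of 14 tested) had a median of 0.0086 with 7 of 14 positive, and 2 of 14, both lower, were at an unadjusted p under 0.05 (50.9% and 16.8% of all genes). These were BSG (basigin), from 934 ± 24.6 to 845 ± 65.1 CPM (edgeR adjusted p = 0.0736), and the tetraspanin CD81, from 196 ± 1.96 to 184 ± 11.8 CPM (0.210). Without knockout replicate 3 both passed (log2 ratio -0.21 and -0.14, edgeR adjusted p = 1.18e-07 and 0.00208), as did SSPN (0.40, 0.0168). That fit called 12.7% of all genes. After GC correction the log2 ratio was -0.055 (0.228) for BSG and 0.022 (0.822) for CD81. Over the 5 lists 7 genes passed after GC correction, 4 higher (HSPG2, PARVB, ZYX and SLC3A2) and 3 lower (SNTB1, TNS1 and PARVA), against 1.09% and 1.26% of all genes, of which ZYX, SLC3A2 and PARVA were named after their values were seen.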

How the data were processed

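The authors counted fragments per gene as whole numbers with featureCounts 2.0.1 on exons of GENCODE 33, paired-end and reverse-stranded, per the file headers; STAR 2.7.6a and GRCh38 are from the submitters' processing notes. The command in the file headers sets no option for counting fragments that map to several places or genes. Gene length is the summed exon length given in the deposited table. A deposited table of the authors' own comparison gives log2 fold changes and p-values; DESeq2 1.38.3 is in the submitters' processing notes. Its direction is not stated, and its sign matched that of the counts in 24 of 24 tested members.

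Genes passing filterByExpr (minimum count 10, minimum total 15), which held 99.92% of counts, were scaled by TMM and tested with edgeR 4.0.16 in R 4.3.3 (glmQLFit, two-sided, no covariates, all 6 libraries), adjusted over all 14425 genes at a threshold of 0.05. The common biological coefficient of variation was 3.28%. CPM and FPKM use TMM-scaled library sizes; SEs come from the fold change and F statistic. Replicate pairs differed by more than sampling noise (chi-square per gene 1.46 to 4.70). The GC correction subtracted a lowess trend (span 0.5) on the GC content of each gene's longest GENCODE 29 transcript, known for 99.54% of tested genes. Alternatives were other scalings, DESeq2 1.42.0, limma 3.58.1 voom, other filters, a replicate block, leaving out libraries and a threshold of 0.01; GC correction with libraries left out and knockout replicate 3 alone were added after seeing the data. Scripts were tested on simulated data. Members and lists were chosen with earlier results of these data known. Named genes are XG, the members, and in each related list the called genes, or the 2 with the smallest p. Exceptions are marked. Further members were LAMC3 (0.209 FPKM in wildtype, log2 ratio 0.13, edgeR adjusted p = 0.794) and ITGA2B, ITGA9 and LAMB4. The last 3 had 49, 35 and 1 counts over all libraries and were not tested. Of the members, 1 that was not tested is counted but not reported here.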

Additional observations from a re-analysis of the deposited data

How the results depend on the processing

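The number of integrin and laminin genes called was 0 with other scalings, DESeq2 (17 of 24 given an adjusted p), limma voom, no filter on low counts, the stricter filter, the replicate block and the threshold of 0.01. It was 1 with GC correction and with GC correction and the replicate block (ITGB2 in both), 0 to 1 when a library was left out (1 without knockout replicate 3, LAMC1), 1 to 2 with GC correction and a library left out, 2 with knockout replicate 3 alone (ITGB2 and LAMA5) and 1 for that library after GC correction (ITGB2). The fits on that 1 library were chosen after it was seen to stand apart and support no call. Over all genes the count of 196 became 647 with no filter on low counts, 37 with the replicate block, 339 with GC correction, 125 and 128 with knockout replicate 3 alone without and with GC correction, and 33 at an adjusted p of 0.01; it was 18 to 1851 when a library was left out, highest without knockout replicate 3, and 131 to 393 with GC correction and a library left out (393 and 386 without knockout replicates 1 and 3). The 2 calls in the related lists became 13 with no filter, 0 with the replicate block, 7 with GC correction, 0 at an adjusted p of 0.01, 0 to 22 when a library was left out (22 without knockout replicate 3) and 2 to 7 with GC correction as well (5 without wildtype replicate 2, and 6, 5 and 7 without knockout replicates 1, 2 and 3). The median log2 fold change of integrins, -0.034, was 0.0043 with the stricter filter, -0.094 and -0.096 with knockout replicate 3 alone without and with GC correction, and -0.058 to 0.0056 when a library was left out (0.0056 without knockout replicate 3); with GC correction as well it was 0.0090 without wildtype replicate 1 and 0.033 without knockout replicate 3. That of laminins, 0.088, was 0.014 with no filter and 0.052 with the stricter filter, where more and fewer genes enter, and 0.031 to 0.099 when a library was left out (lowest without wildtype replicate 2). The other causes were not tested.

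The labels do not say whether libraries with the same replicate number were paired. Deviations of same-numbered libraries from their group means had correlations of -0.046, -0.024 and -0.051. With 3 libraries per group and counting noise in each, these values cannot settle it. With the block no member was called, and ITGB2 had a log2 fold change of 0.060 (edgeR adjusted p = 0.507). XG was called in each of the 23 alternatives run for it. At low counts, depth limits the precision, as for ITGA10 and ITGB3, with SEs of 0.388 and 0.363.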
